A study of Rattus norvegicus with 8 samples.

Results

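The comparison set the young adult pineal gland, at postnatal day 40 (P40), against the fetal gland of late gestation, at embryonic day 21 (E21). It was defined by age and time of day alone, and it uses 4 of the 8 libraries of the series. Glands came from Sprague-Dawley rats kept in a cycle of light and dark, and their polyadenylated RNA was sequenced. The P40 group had 1 mid-day library (zeitgeber time 7, a pool of 3 animals) and 1 mid-night library (zeitgeber time 19, a pool of 3 animals). The E21 group likewise had 1 library at mid-day (a pool of 13 animals) and 1 at mid-night (a pool of 15 animals). The remaining 4 libraries, from postnatal days 5 and 20 (P5 and P20), entered the fit and served for the course over the ages. Animals were pooled, so p-values measure only a spread between libraries, not between animals. With 1 library for each age and time, that spread is what age and time of day leave unexplained over all 8 libraries. A difference between day and night that changes with age adds to it. Values are FPKM (fragments per length of transcript, scaled to all mapped fragments of the library). Where a pair of FPKM values is given for an age, the first is mid-day and the second mid-night.

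The pineal gland turns tryptophan into serotonin and serotonin into melatonin, which it releases at night under the control of sympathetic nerves. Its main cell, the pinealocyte, is related to the photoreceptors of the retina and uses many of the same genes. In the rat the gland grows out of the roof of the diencephalon before birth, still dividing at late gestation. Sympathetic fibres reach it around birth and the adult rhythm of melatonin appears in the weeks that follow.

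Of 16932 transcripts, 9960 reached 1 FPKM in at least 2 of the 8 libraries and were tested with limma on log2(FPKM + 1), with time of day as a block. At a Benjamini-Hochberg adjusted p under 0.05, 4276 passed (42.9%), 1602 higher at P40 (16.1%) and 2674 lower at P40 (26.8%). With a change of at least 2-fold as well, 950 were higher (9.54%) and 1331 were lower (13.4%). The median log2 change of all transcripts tested was -0.18, and gene groups are read below beside that median and those shares. With each library centred on its own median, the counts were 2175 higher and 2004 lower, so the share of higher among the called moved to 52.05%, against 37.46% without centring. Without the P40 mid-day library 2625 transcripts passed, and without the P40 mid-night library 2333. Where counts with 1 library left out are given for a list, their order is P40 mid-day, P40 mid-night, E21 mid-day, E21 mid-night. A log2 difference is P40 minus E21 on the log2(FPKM + 1) scale with its SE, and each p is limma's adjusted p.

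The P40 libraries were the deeper ones: estimated from the lowest FPKM values above 0 among olfactory receptor genes of like length, their depths relative to the P5 mid-day library were 0.909 and 0.993, against 0.518 and 0.702 at E21. Of 18 pinealocyte markers tested, 12 rose and none fell at P40. The summed level of the list was 5832 and 7406 FPKM at P40, against 1223 and 1751 FPKM at E21. Other cells changed too. Of 6 erythroid genes 4 fell, with sums of 1358 and 1717 FPKM at P40 against 12290 and 7136 FPKM at E21. Of 9 fibroblast and meninges genes 8 fell, with sums of 180.0 and 138 FPKM at P40 against 929.5 and 1305 FPKM at E21, and of 7 endothelial genes 6 fell. The 8 endothelial genes measured summed to 24.9 and 19.8 FPKM at P40 against 53.1 and 65.5 FPKM at E21. Of 9 microglial genes tested 4 rose and 2 fell, and the summed level of the 11 measured was 45.3 and 57.7 FPKM at P40 against 24.98 and 33.2 FPKM at E21. Of 8 astrocyte genes 4 rose and 3 fell, of 4 oligodendrocyte genes 2 rose, and of 9 choroid plexus genes 1 rose and 2 fell. Of 5 smooth muscle and pericyte genes 3 fell and none rose, of 3 Schwann cell genes 1 rose and 1 fell, and the only skeletal muscle gene tested did not pass. Over the 4 omissions, the fallen counts were 0 to 3 for smooth muscle, 2 each time for the erythroid genes, 6 to 8 for fibroblast genes and 4 to 6 for endothelial genes, and 1 or 2 microglial genes rose. Of 5 neuronal genes 3 rose and 1 fell, while Chat, which marks cholinergic neurons, was at 0 in all 4 libraries and Gad1 and Gad2, of GABA neurons, were under 1 FPKM in each. Cldn5, an endothelial tight junction gene, was also at 0 in all 4. In bulk tissue, fewer cells of a type and less RNA per cell cannot be told apart, and the part of blood, matrix and vessel RNA in the changes below was not tested.

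Promoters of 6 genes are shown because they carry the short motifs by which photoreceptor, melatonin and cell-cycle genes are usually described; the first 4 genes rose at P40 and the last 2 fell. Each is a RefSeq window of 300 bases on build GRCr8, written along the gene's strand, in lower case with motif matches on either strand in capitals. The motifs searched were TAATCC, bound by the homeodomain proteins OTX and CRX, CCAAT, bound by NF-Y, TGACGTCA, the cyclic AMP response element, CACGTG, the E-box, and TTTGAA, the core of the cell-cycle homology region. The windows lie at chr9:21086392-21086691 (plus strand, Guca1a), chr9:21579025-21579324 (minus strand, Prph2), chr16:9273537-9273836 (plus strand, Rbp3), chr12:21423287-21423586 (minus strand, Asmt), chr20:19265043-19265342 (plus strand, Cdk1) and chr10:84473044-84473343 (minus strand, Top2a).
Guca1a: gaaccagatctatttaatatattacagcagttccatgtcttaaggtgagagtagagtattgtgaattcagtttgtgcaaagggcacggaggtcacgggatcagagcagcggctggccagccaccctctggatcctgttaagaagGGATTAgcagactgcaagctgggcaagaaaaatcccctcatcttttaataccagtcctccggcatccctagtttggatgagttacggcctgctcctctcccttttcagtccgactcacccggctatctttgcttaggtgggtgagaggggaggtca
Prph2: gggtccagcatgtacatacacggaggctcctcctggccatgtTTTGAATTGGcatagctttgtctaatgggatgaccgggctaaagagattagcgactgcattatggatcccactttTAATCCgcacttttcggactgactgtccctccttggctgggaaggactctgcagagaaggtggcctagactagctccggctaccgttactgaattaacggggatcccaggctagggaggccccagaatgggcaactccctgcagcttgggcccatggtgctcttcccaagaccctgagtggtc
Rbp3: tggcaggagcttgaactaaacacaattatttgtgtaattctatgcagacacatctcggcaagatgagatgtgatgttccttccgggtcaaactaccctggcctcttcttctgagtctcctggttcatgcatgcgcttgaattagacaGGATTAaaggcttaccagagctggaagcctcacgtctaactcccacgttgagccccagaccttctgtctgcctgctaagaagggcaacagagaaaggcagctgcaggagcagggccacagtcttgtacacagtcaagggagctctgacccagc
Asmt: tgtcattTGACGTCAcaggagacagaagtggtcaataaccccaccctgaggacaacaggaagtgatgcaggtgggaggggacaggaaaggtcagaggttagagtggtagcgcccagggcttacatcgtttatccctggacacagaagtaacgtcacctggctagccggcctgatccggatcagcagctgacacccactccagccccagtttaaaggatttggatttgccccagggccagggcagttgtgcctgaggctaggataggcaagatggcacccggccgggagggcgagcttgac
Cdk1: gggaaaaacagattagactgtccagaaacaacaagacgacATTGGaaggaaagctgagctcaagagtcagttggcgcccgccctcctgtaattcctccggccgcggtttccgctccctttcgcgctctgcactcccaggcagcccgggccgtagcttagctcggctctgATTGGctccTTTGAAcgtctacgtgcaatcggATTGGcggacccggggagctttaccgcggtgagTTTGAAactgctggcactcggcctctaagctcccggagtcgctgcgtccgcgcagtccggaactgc
Top2a: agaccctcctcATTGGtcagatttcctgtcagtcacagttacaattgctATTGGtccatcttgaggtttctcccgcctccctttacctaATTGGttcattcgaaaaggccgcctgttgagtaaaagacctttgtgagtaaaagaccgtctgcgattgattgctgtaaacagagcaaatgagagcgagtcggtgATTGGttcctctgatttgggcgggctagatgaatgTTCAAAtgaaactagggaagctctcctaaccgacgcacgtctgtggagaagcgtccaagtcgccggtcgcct

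Guca1a, Prph2 and Rbp3 hold TAATCC on one strand or the other, beginning at -106, -133 and -103 from the start site. Asmt holds the cyclic AMP element at -243. Cdk1 holds CCAAT at -210, -81 and -49 and TTTGAA at -72 and -16, and Top2a holds CCAAT at -239, -201, -161 and -57 and TTTGAA at -22. In Prph2 a TTTGAA match and a CCAAT match overlap. Across the genes that changed by at least 2-fold, the shares differed little for most motifs. TAATCC was in 6.33% of 742 promoters of genes that rose and 5.07% of 1084 that fell, against 5.42% of the 8019 promoters of all genes tested and 7.17% of the whole RefSeq table. CCAAT was in 38.1% of risen, 41.9% of fallen and 38.4% of all tested. TTTGAA was in 10.2% of risen, 15.8% of fallen and 11.0% of all tested, and 18.3% of the whole table. TGACGTCA was in 3.77%, 2.68% and 3.43%, and CACGTG in 6.87%, 8.12% and 9.43%, in the same order. Of 16 pinealocyte marker genes with a promoter in the table, 5 hold TAATCC (31.2%). Of the same 16, 7 hold CCAAT (43.8%), 3 TTTGAA (18.8%), 2 TGACGTCA (12.5%) and 1 CACGTG (6.25%). These shares were not tested. A match is a description of letters and not a binding site.

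Asmt, Alox15 and A2m led the 12 genes of largest increase. The ranking took genes with a single listed transcript that passed the test, with at least 10 FPKM in both P40 libraries. Asmt, the last enzyme of melatonin synthesis, had 123 and 208 FPKM at P40 and 0.432 and 1.19 FPKM at E21 (log2 difference 6.50 ± 0.24, adjusted p = 1.1e-05). Alox15, a lipoxygenase that oxidizes polyunsaturated fatty acids, had 336 and 290.5 FPKM at P40 and 2.97 and 3.80 FPKM at E21 (6.16 ± 0.20, adjusted p = 1.1e-05). A2m, a broad inhibitor of proteases, had 156 FPKM in each P40 library and 1.52 and 2.70 FPKM at E21 (5.68 ± 0.21, adjusted p = 1.1e-05). For all 12 genes of largest increase, both P40 libraries lay above both E21 libraries, as they did in 28.2% of all transcripts tested, and since the rule used that contrast nothing is read from this. Scg2, a secretogranin of dense-core granules, had 58.7 and 152 FPKM at P40 and 2.21 and 1.2 FPKM at E21 (5.17 ± 0.47, adjusted p = 0.00019), higher at mid-night than at mid-day at P40 and not at E21. Mpp4, a scaffold of photoreceptor synapses, had 138 and 157 FPKM at P40 and 3.93 and 4.51 FPKM at E21 (4.83 ± 0.19). Guca1a, the calcium sensor that activates guanylate cyclase in photoreceptors, had 32.1 and 41.1 FPKM at P40 and 0.825 and 0.330 FPKM at E21 (4.58 ± 0.27). Rgs7, which speeds the shut-off of G proteins in neurons, had 39.3 and 23.9 FPKM at P40 and 0.456 and 0.342 FPKM at E21 (4.50 ± 0.21). The others of the 12 were the carbonic anhydrase gene Car3 (4.88), the elongation factor gene Eef1a2 (4.77), the tubulin gene Tuba4a (4.65), the galectin gene Lgals3 (4.63) and the cone transducin gene Gngt2 (4.46).

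H19, Nt5dc2 and Tubb2b led the 12 genes of largest decrease, ranked among genes with a single listed transcript and at least 10 FPKM in both E21 libraries. H19, an imprinted noncoding RNA of fetal tissue, had 0.362 and 0.458 FPKM at P40 and 277 and 233 FPKM at E21 (log2 difference -7.50 ± 0.27, adjusted p = 1.1e-05). Grm6, the glutamate receptor known from retinal ON bipolar cells, had 0.508 and 0.270 FPKM at P40 and 31.1 and 38.9 FPKM at E21 (-4.69 ± 0.24, adjusted p = 2.63e-05). Pmel, which builds the fibrils of pigment granules, had 0.0931 and 0.0359 FPKM at P40 and 18.7 and 15.6 FPKM at E21 (-4.09 ± 0.19, adjusted p = 1.97e-05). In these and the other 9 genes of largest decrease, no P40 library reached the lower E21 library, as in 46.1% of all transcripts tested. The rule used that contrast here too, so nothing is read from this. Pcsk2, a protease that cuts prohormones, had 0.0862 and 0.0470 FPKM at P40 and 23.4 and 15.3 FPKM at E21 (-4.23 ± 0.21). Pcp4, a calmodulin-binding protein of neurons, had 13.2 and 21.5 FPKM at P40 and 313 and 488 FPKM at E21 (-4.46 ± 0.19). Cdk1, the kinase that drives mitosis, had 0.593 and 0.281 FPKM at P40 and 29.3 and 18.7 FPKM at E21 (-4.10 ± 0.24). Tmsb10, which binds actin monomers, had 14.0 and 10.6 FPKM at P40 and 127 and 365 FPKM at E21 (-4.03 ± 0.49), and its E21 libraries differed widely between themselves. The remainder were Nt5dc2 (-5.18), the tubulin gene Tubb2b (-4.74), Top2a of dividing cells (-4.54), the matrix gene Postn (-4.43) and the mitotic ubiquitin ligase gene Ube2c (-4.15).

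**Figure D1:**
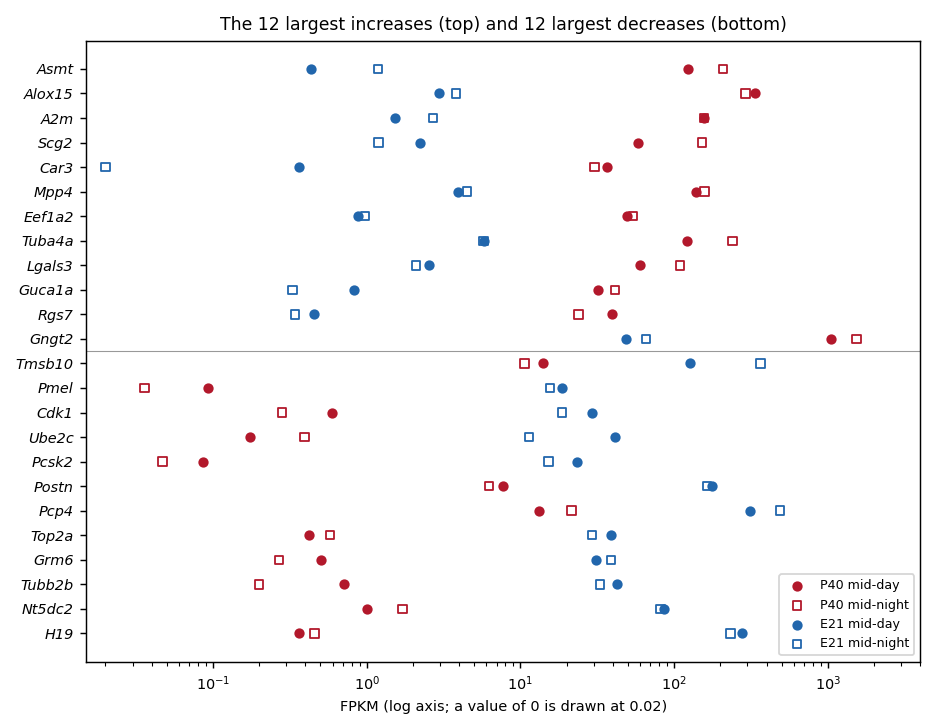
FPKM on a log axis in each of the 4 libraries for the 12 transcripts of largest increase and the 12 of largest decrease. Only genes with a single listed transcript were ranked. Red marks are P40 and blue marks E21, with filled circles for mid-day and open squares for mid-night. In every row the red marks stand apart from the blue marks, but the ranking used that contrast, so nothing is read from this. Asmt had 123 and 208 FPKM at P40 against 0.432 and 1.19 FPKM at E21.

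In absolute level, the transcript that led the gland changed. Tph1, which hydroxylates tryptophan in the first step towards serotonin, had 2756 and 2525 FPKM at P40 and 369.6 and 331 FPKM at E21 and was the highest transcript of both P40 libraries. It made up 1.933% of the FPKM sum at P40, against 0.2546% at E21. At E21 the globin transcripts led, with Hba-a2 at 436 and 374 FPKM at P40 and 8340 and 3310 FPKM at E21. Globin genes have near-identical copies, and how reads were split between them is uncertain. Among the largest gains in level were also Syp, a protein of synaptic vesicles and of the small vesicles of pinealocytes, with 714 and 675 FPKM at P40 and 81.6 and 88.3 FPKM at E21, and Ndufa4, of the respiratory chain, with 652 and 599.9 FPKM at P40 and 62.8 and 202 FPKM at E21. Among the largest losses were H3f3b, a replacement histone, with 77.3 and 101 FPKM at P40 and 620.4 and 343 FPKM at E21, and Actb, cytoplasmic actin, with 384 and 358 FPKM at P40 and 1218 and 732 FPKM at E21. Both belong to families with many processed copies. All 6 passed the test, at log2 differences of 2.91 (Tph1), -3.70 (Hba-a2), 3.02 (Syp), 2.46 (Ndufa4), -2.37 (H3f3b) and -1.35 (Actb). With no filter on low values the adjusted p was 0.928 for Tph1, 0.704 for Hba-a2, 0.104 for Ndufa4 and 0.467 for Actb. Actb was also lost without P40 mid-day (adjusted p = 0.129), P40 mid-night (0.102) or E21 mid-day (0.131).

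Within the pinealocyte list, the 6 members that did not pass were Crx, Otx2, Neurod1, Aanat, Gngt1 and Drd4. Grk1, the kinase that shuts off opsins, had 52.6 and 48.2 FPKM at P40 and 2.09 and 2.43 FPKM at E21 (log2 difference 3.98 ± 0.17, adjusted p = 1.48e-05). Sag, the arrestin of photoreceptors, had 113 and 155 FPKM at P40 and 20.2 and 23.1 FPKM at E21 (2.56 ± 0.25, adjusted p = 0.000239). Rom1, a protein of the disc rim, had 106 and 109 FPKM at P40 and 12.3 and 16.5 FPKM at E21 (2.83 ± 0.30, adjusted p = 0.00036). Crx, Otx2 and Neurod1, which encode factors that drive pineal and photoreceptor genes, were at high levels at either age. Crx had 106 and 195 FPKM at P40 and 116 and 107 FPKM at E21 (0.37), and Otx2 had 134 and 218 FPKM at P40 and 274 and 267 FPKM at E21 (-0.66). Neurod1 had 115 and 105 FPKM at P40 and 140.4 and 133 FPKM at E21 (-0.32). Isl2, also a transcription factor gene, had 65.3 and 23.5 FPKM at P40 and 18.6 and 16.8 FPKM at E21 (1.11 ± 0.32, adjusted p = 0.0266), and was lost without P40 mid-day (adjusted p = 0.218) or E21 mid-day (0.16) and with no filter (0.158). Gngt1, the rod transducin subunit, had 409 and 1056 FPKM at P40 and 47.1 and 580.2 FPKM at E21 (1.98 ± 1.28, adjusted p = 0.246), and Drd4, a dopamine receptor, had 1.07 and 12.4 FPKM at P40 and 1.197 and 1.35 FPKM at E21 (1.21 ± 0.79, adjusted p = 0.25). Aanat is given below by time of day. Under quantile normalization 12 rose and 2 fell. The 4 omissions gave 11, 11, 11 and 13 risen members, and with no filter 8 rose. Rbp3, a retinoid carrier shown above with its promoter, had 214 and 322 FPKM at P40 and 80.8 and 112 FPKM at E21, and its rise of 1.46 ± 0.29 (adjusted p = 0.00536) was lost without P40 mid-night (adjusted p = 0.0653). Pde6b was under 1 FPKM in each of the 4 libraries and was not tested.

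Of 36 potassium and HCN channel genes tested, 15 rose (41.7%) and 6 fell (16.7%), and the list median was 0.55, against -0.18 over all transcripts. Under quantile normalization 18 rose and 2 fell, and under median centring 17 rose and 5 fell. Kcnj14, an inward rectifier, had 55.6 and 47.6 FPKM at P40 and 5.42 and 6.86 FPKM at E21 (log2 difference 2.88 ± 0.19, adjusted p = 5.43e-05). Hcn2, a channel opened by hyperpolarization and cyclic nucleotides, had 73.7 and 71.5 FPKM at P40 and 10.4 and 16.5 FPKM at E21 (2.38 ± 0.25, adjusted p = 0.000373). Kcnh6, a channel of the ERG family, had 78.1 and 69.2 FPKM at P40 and 23.2 and 25.6 FPKM at E21 (1.56 ± 0.27, adjusted p = 0.00312). In each of the 3 genes the time of day made little difference beside that of age. Kcnip4, a subunit that modulates Kv4 channels, went the other way, with 1.59 and 1.73 FPKM at P40 and 13.8 and 7.89 FPKM at E21 (-2.11 ± 0.29, adjusted p = 0.00114). When each library was omitted, 11, 10, 12 and 12 channel genes rose and 3, 3, 3 and 4 fell.

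The acetylcholine receptor genes divided by subunit. Pinealocytes carry nicotinic receptors, through which acetylcholine opposes the nocturnal rise of melatonin. Chrna3, an alpha subunit of ganglionic nicotinic receptors, had 34.2 and 35.7 FPKM at P40 and 4.18 and 2.66 FPKM at E21 (log2 difference 3.04 ± 0.20, adjusted p = 5.09e-05). Chrnb4, its usual beta partner, had 138 and 109.6 FPKM at P40 and 38.5 and 35.5 FPKM at E21 (1.71 ± 0.21, adjusted p = 0.000669). In both genes the P40 libraries lay above the E21 libraries, as in 28.2% of all transcripts. Both were named after passing the test, so nothing is read from this. Chrna7, which forms receptors of its own, had 0 and 0.0802 FPKM at P40 and 1.2 and 1.94 FPKM at E21 (-1.29 ± 0.19, adjusted p = 0.00148). Chrm3, a muscarinic receptor, had 0.278 and 0.482 FPKM at P40 and 3.87 and 2.86 FPKM at E21 (-1.65 ± 0.21, adjusted p = 0.000763). In all, 3 of 7 tested rose and 3 fell. Chrnb2, the third that rose (0.96 ± 0.19, adjusted p = 0.00556), was lost without P40 mid-night (adjusted p = 0.0633) or E21 mid-night (0.0537). Bche, which breaks down choline esters, passed at an adjusted p of 0.0498 and was lost without any of the 4 libraries (0.101, 0.28, 0.265 and 0.0663).

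The enzymes that remove serotonin changed places. Maob, a mitochondrial monoamine oxidase that in rat pinealocytes acts on serotonin and other amines, had 20.1 and 31.3 FPKM at P40 and 4.18 and 3.88 FPKM at E21 (log2 difference 2.38 ± 0.22, adjusted p = 0.000192). Maoa, the other oxidase, had 2.30 and 1.52 FPKM at P40 and 8.21 and 6.47 FPKM at E21 (-1.52 ± 0.23, adjusted p = 0.00152). Maob thus stood above Maoa in both P40 libraries and below it in both E21 libraries, on a scale set per length of transcript. Of the 9 genes of serotonin handling tested, 3 rose and 2 fell, and the 4 omissions gave 2, 1, 3 and 1 risen and 2, 1, 2 and 1 fallen. Slc7a5, a carrier of large neutral amino acids, had 10.46 and 34.2 FPKM at P40 and 7.77 and 7.73 FPKM at E21. Its rise (1.199 ± 0.39, adjusted p = 0.0391) was lost without P40 mid-night (adjusted p = 0.325) or E21 mid-night (0.221).

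Peptide and hormone signalling moved gene by gene. Penk, the precursor of enkephalins, had 23.6 and 30.1 FPKM at P40 and 0.686 and 1.61 FPKM at E21 (log2 difference 3.72 ± 0.24, adjusted p = 4.92e-05). Ramp2, a partner of the calcitonin-like receptors, had 4.28 and 5.30 FPKM at P40 and 11.8 and 15.5 FPKM at E21 (-1.33 ± 0.21, adjusted p = 0.00203). The receptors for endothelin diverged. Ednrb had 12.8 and 17.4 FPKM at P40 and 5.15 and 2.37 FPKM at E21 (1.81 ± 0.39, adjusted p = 0.00787), while Ednra had 2.94 and 2.18 FPKM at P40 and 6.67 and 8.32 FPKM at E21 (-1.26 ± 0.24, adjusted p = 0.00443). The rise of Ednrb was lost without P40 mid-night (adjusted p = 0.0517). Sst, the precursor of somatostatin, had 0.0532 and 0.0383 FPKM at P40 and 3.87 and 4.36 FPKM at E21 (-2.29 ± 0.23, adjusted p = 0.000265). Over the list 6 of 18 rose and 8 fell, but 6 rose and 5 fell under either scaling between libraries, so no direction of the list is given. Without each library in turn, 2, 4, 3 and 4 rose and 6, 5, 5 and 7 fell.

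Of 19 hormone receptor genes 7 rose (36.8%) and 3 fell (15.8%), against 16.1% and 26.8% of all transcripts, with a median of 0.00. Esrrg, an orphan receptor that drives genes of oxidative metabolism, had 16.1 and 15.8 FPKM at P40 and 4.54 and 5.19 FPKM at E21 (log2 difference 1.53 ± 0.18, adjusted p = 0.00063), almost the same in both libraries of each age. Esrra, its relative, had 5.35 and 6.05 FPKM at P40 and 2.51 and 2.64 FPKM at E21 (0.91 ± 0.18, adjusted p = 0.00547), and was lost without P40 mid-night (adjusted p = 0.0564). Nr3c2, the mineralocorticoid receptor, had 5.71 and 5.598 FPKM at P40 and 1.33 and 1.79 FPKM at E21 (1.39 ± 0.20, adjusted p = 0.0014). The 4 omissions gave 4, 4, 4 and 5 risen and 2, 0, 2 and 0 fallen. Of 18 purine signalling genes 4 rose (22.2%) and 3 fell (16.7%), against the same shares of all transcripts. P2ry6, a receptor for UDP, had 2.65 and 3.59 FPKM at P40 and 0.246 and 0.112 FPKM at E21 (1.80 ± 0.20, adjusted p = 0.000414), and Adora2a, an adenosine receptor, had 0.168 and 0.182 FPKM at P40 and 1.08 and 1.59 FPKM at E21 (-0.98 ± 0.19, adjusted p = 0.00466). These counts became 1, 4, 3 and 2 risen and 3, 1, 3 and 2 fallen with 1 library left out.

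Lysosomal genes rose in a larger share than all genes, 21 of 53 (39.6%) with 3 fallen and a median of 0.45. Atp6v1b2, a subunit of the proton pump that acidifies lysosomes and secretory vesicles, had 138 and 169.6 FPKM at P40 and 42.2 and 39.7 FPKM at E21 (log2 difference 1.88 ± 0.21, adjusted p = 0.000464). Atp6v0d1, of the membrane part of the pump, had 230.0 and 238 FPKM at P40 and 102 and 90.1 FPKM at E21 (1.28 ± 0.24, adjusted p = 0.00426), and was lost without P40 mid-night (adjusted p = 0.0531). The proteases did not move as one. Ctsk, a cathepsin that degrades collagen, had 3.47 and 3.17 FPKM at P40 and 9.97 and 13.9 FPKM at E21 (-1.57 ± 0.21, adjusted p = 0.00102), whereas Ctss, a cathepsin of antigen-presenting cells, had 11.3 and 12.7 FPKM at P40 and 2.03 and 2.40 FPKM at E21 (2.02 ± 0.19, adjusted p = 0.000216). Gusb, beta-glucuronidase, had 0.952 and 0.682 FPKM at P40 and 5.51 and 5.67 FPKM at E21 (-1.86 ± 0.27, adjusted p = 0.00131). With 1 library left out, 14, 10, 13 and 15 lysosomal genes rose. The microglial marker sum given above was also higher at P40, and its part in these changes was not tested.

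Complement showed the highest median of the 22 lists, 1.19, with 12 of 18 genes risen (66.7%) and 2 fallen. Clu, a chaperone that blocks the terminal complex, had 470.0 and 543 FPKM at P40 and 165 and 153 FPKM at E21 (log2 difference 1.67 ± 0.30, adjusted p = 0.00349). Serping1, the inhibitor of the C1 proteases, had 62.8 and 62.5 FPKM at P40 and 16.2 and 13.5 FPKM at E21 (2.01 ± 0.17, adjusted p = 0.00015). C3, the central component, had 3.01 and 3.87 FPKM at P40 and 0.101 and 0.0655 FPKM at E21 (2.03 ± 0.18, adjusted p = 0.000161). A2m, listed here as a protease inhibitor and given above, had the largest difference of the list. C1qa, made by microglia and macrophages, had 13.7 and 22.8 FPKM at P40 and 3.86 and 7.19 FPKM at E21 (1.57 ± 0.17, adjusted p = 0.000448). Cfp, properdin, which stabilizes the alternative pathway enzyme, had 1.50 and 1.68 FPKM at P40 and 3.73 and 3.29 FPKM at E21 (-0.80 ± 0.21, adjusted p = 0.0171), and was lost without P40 mid-day (0.0863), P40 mid-night (0.0904) or E21 mid-day (0.12). With no filter Clu was lost (adjusted p = 0.148). The 4 omissions gave 9, 10, 10 and 10 risen genes and 1, 0, 0 and 1 fallen.

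Of 38 genes of glycolysis and energy supply 14 rose (36.8%) and 7 fell (18.4%), against 16.1% and 26.8% of all transcripts. The list median was 0.41. Under quantile normalization 17 rose and 6 fell, and under median centring 19 rose and 4 fell. Ckb, brain creatine kinase, had 386 and 409 FPKM at P40 and 74.5 and 76.1 FPKM at E21 (log2 difference 2.38 ± 0.30, adjusted p = 0.000779). Ckmt1, its mitochondrial partner, had 9.59 and 19.3 FPKM at P40 and 1.25 FPKM in each E21 library (2.70 ± 0.25, adjusted p = 0.000192). The lactate carriers diverged. Slc16a3, a lactate exporter of glycolytic cells, had 0.4997 and 0.462 FPKM at P40 and 4.90 and 4.09 FPKM at E21 (-1.89 ± 0.24, adjusted p = 0.000801), while Slc16a1, its relative, had 11.2 and 25.1 FPKM at P40 and 5.42 and 5.52 FPKM at E21 (1.47 ± 0.25, adjusted p = 0.00311). Over the 4 omissions, 10, 9, 10 and 11 rose and 4, 1, 3 and 2 fell.

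Of 38 genes of fatty acid transport and oxidation 10 rose and 7 fell, shares of 26.3% and 18.4%. The shares of all transcripts were 16.1% and 26.8%. Apoe, the lipid carrier of brain, had 454 and 372 FPKM at P40 and 35.1 and 35.6 FPKM at E21 (log2 difference 3.50 ± 0.27, adjusted p = 9.46e-05). Lpl, which frees fatty acids from lipoproteins, had 99.1 and 81.0 FPKM at P40 and 35.5 and 25.5 FPKM at E21 (1.54 ± 0.23, adjusted p = 0.00161). Eci1, an isomerase of beta-oxidation, had 4.49 and 5.37 FPKM at P40 and 27.7 and 26.3 FPKM at E21 (-2.24 ± 0.21, adjusted p = 0.000196). Each kept its ages apart, but each was named after passing the test, so nothing is read from this. Leaving out 1 library gave 5, 6, 5 and 10 risen and 3, 4, 4 and 4 fallen.

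Antioxidant and conjugating enzymes went both ways, 14 up (30.4%) and 11 down (23.9%) of 46, against 16.1% and 26.8% of all transcripts. Their median was -0.04, against -0.18 over all transcripts. Gpx4, which reduces lipid peroxides, had, for the higher of its 2 transcripts, 323 and 309.8 FPKM at P40 and 106 and 96.9 FPKM at E21 (log2 difference 1.63 ± 0.24, adjusted p = 0.00155). Sod3, the extracellular superoxide dismutase, had 65.2 and 81.0 FPKM at P40 and 20.9 and 12.9 FPKM at E21 (2.08 ± 0.26, adjusted p = 0.000779). Gsta3, a glutathione transferase, had 24.1 and 55.4 FPKM at P40 and 0.277 and 2.35 FPKM at E21 (4.19 ± 0.30, adjusted p = 6.73e-05). Those that fell included peroxidases of the endoplasmic reticulum: Gpx8 had 7.31 and 8.89 FPKM at P40 and 28.4 and 28.5 FPKM at E21 (-1.70 ± 0.25, adjusted p = 0.00142), and Prdx4 had 1.51 and 2.13 FPKM at P40 and 12.3 and 14.2 FPKM at E21 (-2.34 ± 0.22, adjusted p = 0.000214). The counts with 1 library left out were 10, 7, 11 and 9 up and 8, 10, 8 and 9 down.

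In the endoplasmic reticulum, 3 of 33 folding and secretion genes rose (9.09%) and 8 fell (24.2%), against 16.1% and 26.8% of all transcripts. Under quantile normalization 13 of the 33 fell, where 2176 of all 9960 transcripts fell, so no order against all transcripts is given. P4hb, a disulfide isomerase that is also a subunit of the collagen hydroxylase, had 41.4 and 43.6 FPKM at P40 and 82.7 and 95.8 FPKM at E21 (log2 difference -1.05 ± 0.19, adjusted p = 0.00371). Dnajb9, a cofactor of the chaperone BiP, had 15.0 and 14.0 FPKM at P40 and 5.87 and 5.57 FPKM at E21 (1.205 ± 0.22, adjusted p = 0.00388). When each library was omitted the counts were 3, 1, 2 and 2 risen and 4, 4, 7 and 7 fallen. Of 25 glycosylation genes 6 rose and 8 fell, but 7 rose and 5 fell under either scaling between libraries, so no direction is given. St8sia3, which adds sialic acid to gangliosides and glycoproteins, had 45.1 and 11.0 FPKM at P40 and 0.378 and 0.203 FPKM at E21 (4.19 ± 0.63, adjusted p = 0.0016, or 0.0522 with no filter), so it was higher by day than by night at P40. St6galnac2, which sialylates O-linked sugars, had 8.88 and 10.7 FPKM at P40 and 25.2 and 28.3 FPKM at E21 (-1.36 ± 0.19, adjusted p = 0.00109). Leaving out 1 library gave 5, 4, 5 and 6 risen and 5, 3, 5 and 5 fallen.

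**Figure D2:**
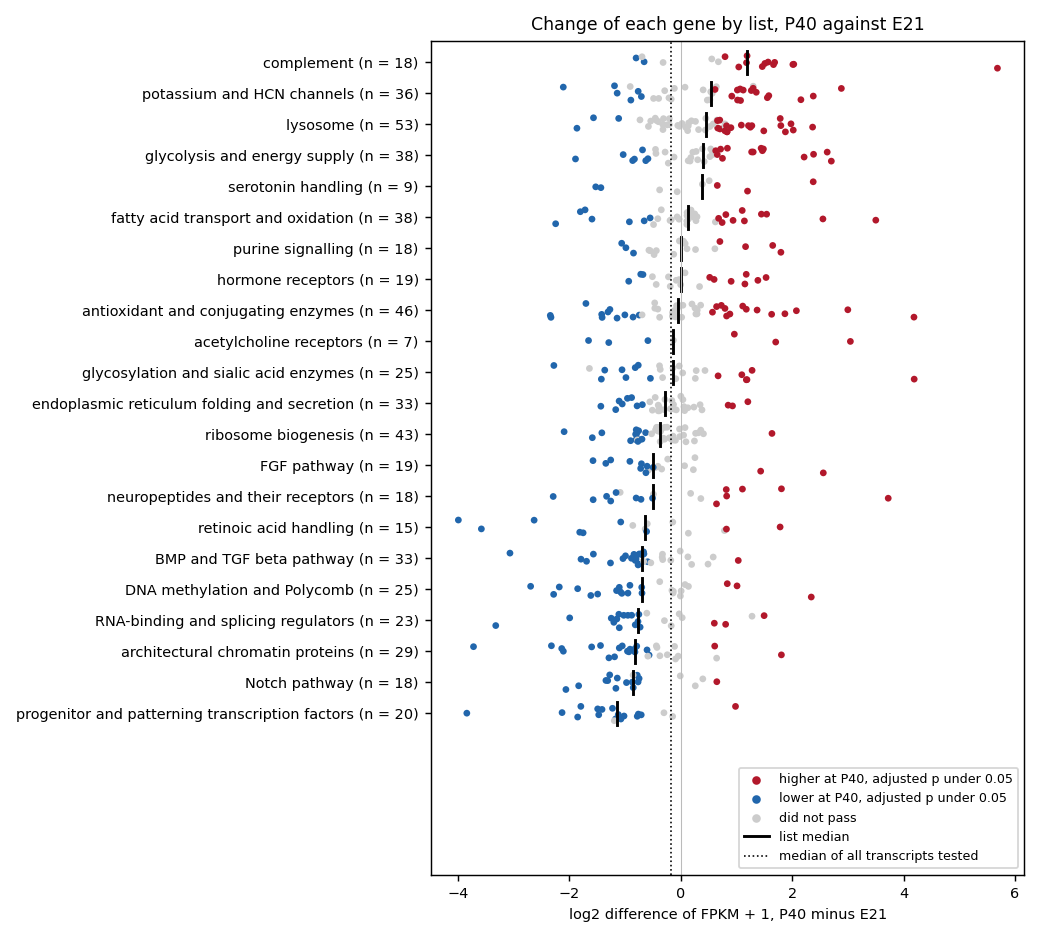
Log2 difference of FPKM + 1, P40 minus E21, for each gene tested of the 22 lists. Red points passed the test as higher at P40, blue points as lower and grey points did not pass; the bar is the list median and the dotted line the median of all 9960 transcripts, -0.18. Complement stood at the top with a median of 1.19, and progenitor and patterning factors at the bottom with a median of -1.14.

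Of 20 transcription factor genes of progenitors and early patterning tested, 16 fell (80.0%) and 1 rose, with a median of -1.14. Zic1, a zinc finger factor of the dorsal neural tube, had 6.53 and 7.92 FPKM at P40 and 17.5 and 15.1 FPKM at E21 (-1.07 ± 0.22, adjusted p = 0.00672), and was lost without E21 mid-day (adjusted p = 0.0546) or with no filter (0.0544). Mycn, a growth regulator of neural progenitors, had 0.0724 and 0.0450 FPKM at P40 and 4.04 and 3.25 FPKM at E21 (-2.13 ± 0.17, adjusted p = 0.000115). Mycn was near the bottom of what was measured at P40, and Zic1 was not. Eya2, a transcriptional coactivator, was the member that rose, with 4.74 and 8.27 FPKM at P40 and 2.10 and 3.40 FPKM at E21 (0.98 ± 0.20, adjusted p = 0.00681), and was lost without P40 mid-night (adjusted p = 0.0625). Without each library in turn, 15, 12, 12 and 13 fell.

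Notch signalling keeps progenitors from differentiating, and 13 of its 18 genes tested fell (72.2%) while 1 rose (5.56%), with a median of -0.86. Of all transcripts, 26.8% fell and 16.1% rose. Among receptors, Notch1 had 2.32 and 1.95 FPKM at P40 and 6.39 and 7.51 FPKM at E21 (log2 difference -1.34 ± 0.19, adjusted p = 0.00116). Notch3 had 2.60 and 1.53 FPKM at P40 and 5.28 and 7.95 FPKM at E21 (-1.31 ± 0.27, adjusted p = 0.00638), and was lost without P40 mid-night (adjusted p = 0.062). Among ligands, Dll3 had 0 FPKM in both P40 libraries and 1.23 and 1.62 FPKM at E21 (-1.27 ± 0.17, adjusted p = 0.000963). In the nucleus, Rbpj, the factor that carries the signal to DNA, had 15.5 and 14.7 FPKM at P40 and 28.3 and 24.6 FPKM at E21 (-0.76 ± 0.17, adjusted p = 0.00849). Rbpj was lost without P40 mid-day (adjusted p = 0.0564), P40 mid-night (0.074) or E21 mid-day (0.0623). The target Hey2 rose by 0.65 ± 0.21 (adjusted p = 0.0407), with 2.93 and 2.42 FPKM at P40 and 1.68 and 1.05 FPKM at E21, and was lost without any of the 4 libraries (0.113, 0.207, 0.118 and 0.169). With 1 library left out, 10, 8, 11 and 9 Notch genes fell.

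Of 33 BMP and TGF beta genes 20 fell (60.6%) and 1 rose, with a median of -0.69. Under quantile normalization 12 fell and 2 rose, and under median centring 15 fell and 3 rose. Among ligands, Bmp4 had 4.11 and 4.78 FPKM at P40 and 50.8 and 38.8 FPKM at E21 (log2 difference -3.06 ± 0.21, adjusted p = 6.04e-05). Fstl1, an extracellular binder of BMPs, had 58.2 and 63.3 FPKM at P40 and 139.6 and 154 FPKM at E21 (-1.26 ± 0.21, adjusted p = 0.00264). Bmp6 was the gene that rose, with 6.18 and 7.85 FPKM at P40 and 2.10 and 3.89 FPKM at E21 (1.03 ± 0.25, adjusted p = 0.012). So Bmp4 was the higher ligand gene in both E21 libraries and Bmp6 in both P40 libraries, per length of transcript. Bmp6 was lost without P40 mid-day (adjusted p = 0.0664), P40 mid-night (0.0657) or E21 mid-day (0.09). Smad2, which carries TGF beta and activin signals, had 11.8 and 9.44 FPKM at P40 and 18.6 and 20.8 FPKM at E21 (-0.84 ± 0.24, adjusted p = 0.0241), and was lost without P40 mid-day (0.108), P40 mid-night (0.111) or E21 mid-night (0.177). The count of fallen genes with 1 library left out was 10, 7, 10 and 10. The fibroblast marker sum given above was also lower at P40, and its part in these changes was not tested.

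Of 19 FGF pathway genes 9 fell and 2 rose, with a median of -0.49. The fallen count depended on the setting, with 4 under quantile normalization, 5 under median centring and 2 at a filter of 5 FPKM, while 2 rose in each. The 2 that rose were Fgf1, a growth factor without a signal peptide, with 20.9 and 20.1 FPKM at P40 and 3.11 and 2.23 FPKM at E21 (log2 difference 2.56 ± 0.18, adjusted p = 6.04e-05), and Spry2, an inhibitor of the pathway, with 9.46 and 6.19 FPKM at P40 and 2.43 and 2.002 FPKM at E21 (1.44 ± 0.23, adjusted p = 0.002). Flrt3, a membrane protein that binds FGF receptors, had 3.45 and 5.34 FPKM at P40 and 14.2 and 11.0 FPKM at E21 (-1.34 ± 0.23, adjusted p = 0.00314). The fallen members were less firm than the risen ones: with 1 library left out, 3, 2, 3 and 4 fell and 2 rose each time.

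Of 15 genes of retinoic acid handling 7 fell (46.7%) and 2 rose (13.3%), against 26.8% and 16.1% of all transcripts. The list median was -0.64, and the 2 that rose were Aldh1a1 and Rxrg. Stra6, the membrane receptor that takes up retinol, had 0.591 and 0.537 FPKM at P40 and 28.8 and 19.7 FPKM at E21 (log2 difference -3.99 ± 0.33, adjusted p = 0.000125). Crabp2, which hands retinoic acid to its nuclear receptors, had 0.508 and 0.531 FPKM at P40 and 17.9 and 16.4 FPKM at E21 (-3.58 ± 0.22, adjusted p = 4.01e-05). For the enzymes that make retinoic acid, Aldh1a1 had 25.5 and 25.7 FPKM at P40 and 9.38 and 4.75 FPKM at E21 (1.78 ± 0.22, adjusted p = 0.000778). Aldh1a2, the enzyme of the embryo, had 2.69 and 1.29 FPKM at P40 and 6.83 and 11.2 FPKM at E21 (-1.75 ± 0.29, adjusted p = 0.00264). Rxrg, a partner receptor that photoreceptors also express, had 65.0 and 43.8 FPKM at P40 and 29.2 and 30.4 FPKM at E21 (0.82 ± 0.23, adjusted p = 0.0228). Rxrg was lost without P40 mid-day (adjusted p = 0.14), P40 mid-night (0.0837) or E21 mid-day (0.163). Over the 4 omissions, 6, 5, 7 and 5 genes fell.

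Chromatin genes fell in larger shares than all genes. Of 25 DNA methylation and Polycomb genes 14 fell (56.0%) and 3 rose, with a median of -0.70, and of 29 architectural chromatin genes 18 fell (62.1%) and 2 rose, with a median of -0.82. Hmgn2, a nucleosome-binding protein, had 2.01 and 3.56 FPKM at P40 and 86.1 and 26.3 FPKM at E21 (log2 difference -3.72 ± 0.57, adjusted p = 0.00178); its family has many processed copies, so its level is uncertain. With no filter the adjusted p was 0.0542 for Hmgn2. Lmnb1, a lamin of the nuclear envelope, had 7.40 and 4.07 FPKM at P40 and 33.2 and 30.04 FPKM at E21 (-2.32 ± 0.23, adjusted p = 0.000271). H1f0, the linker histone of cells that leave the cycle, had 19.1 and 14.2 FPKM at P40 and 94.1 and 58.6 FPKM at E21 (-2.11 ± 0.20, adjusted p = 0.00022), so it fell with the others. Smarca2, an ATPase of the BAF remodelling complex, rose, with 181 and 124 FPKM at P40 and 37.8 and 46.9 FPKM at E21 (1.81 ± 0.31, adjusted p = 0.00314, or 0.0518 with no filter). Within Polycomb, the reader Cbx2 had 0.153 and 0.190 FPKM at P40 and 4.54 and 4.85 FPKM at E21 (-2.28 ± 0.17, adjusted p = 8.7e-05). The reader Cbx7 had 5.07 and 7.33 FPKM at P40 and 0.458 and 0.347 FPKM at E21 (2.34 ± 0.23, adjusted p = 0.000262), the opposite order in every library. Dnmt3a, a methyltransferase that sets new DNA methylation, had 2.18 and 2.01 FPKM at P40 and 7.60 and 9.43 FPKM at E21 (-1.61 ± 0.18, adjusted p = 0.000505), for the higher of its 2 transcripts. When each library was omitted, 10, 10, 12 and 10 of the methylation and Polycomb genes fell and 11, 13, 16 and 14 of the architectural ones.

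RNA-binding and splicing regulators fell in 14 of 23 cases (60.9%) and rose in 3, with a median of -0.77. Rbm3, a cold-inducible protein, had 10.4 and 8.18 FPKM at P40 and 108 and 94.5 FPKM at E21 (log2 difference -3.32 ± 0.22, adjusted p = 5.67e-05). Brunol4, now called Celf4, a neuronal regulator of splicing and translation, had 21.5 and 25.5 FPKM at P40 and 8.32 and 7.03 FPKM at E21 (1.50 ± 0.22, adjusted p = 0.00153). Msi1, a translational repressor of neural stem cells and photoreceptors, had 40.8 and 29.3 FPKM at P40 and 55.3 and 68.6 FPKM at E21 (-0.82 ± 0.25, adjusted p = 0.0334), still a high level at P40. Msi1 was lost without P40 mid-day (adjusted p = 0.103), P40 mid-night (0.19) or E21 mid-night (0.242). Without each library in turn, 9, 8, 9 and 11 fell. Of 43 ribosome biogenesis genes 13 fell (30.2%) and 1 rose (2.33%), with a median of -0.37, against 26.8% and 16.1% of all transcripts. Under quantile normalization 9 fell and 2 rose, where 2176 of all 9960 transcripts fell. Under median centring 7 fell and 4 rose, where 2004 of all transcripts fell. No fall of the list beyond that of all transcripts is read from these counts. Bop1, which processes the large ribosomal subunit, was the one that rose, with 18.2 and 21.5 FPKM at P40 and 4.87 and 6.59 FPKM at E21 (1.64 ± 0.25, adjusted p = 0.00192). Nop58, a core protein of small nucleolar particles, had 13.5 and 9.74 FPKM at P40 and 24.4 and 17.8 FPKM at E21 (-0.81 ± 0.18, adjusted p = 0.00923), and was lost without P40 mid-night (0.087) or E21 mid-day (0.0634). With 1 library left out, 3, 5, 4 and 10 of these genes fell.

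Pairs of related genes were compared within libraries, the members listed as young form and mature form. These labels are those of the list, and not every pair, such as the proteasome subunits, is an established switch with age. Ratios were taken of FPKM + 1, so scaling between libraries cancels for well-expressed genes but only in part near or under 1 FPKM. Of 30 pairs, 23 had both genes tested, and in 17 the ratio of the mature form to the young form was higher in both P40 libraries than in both E21 libraries. In 5 the ratio lay above 1 in both P40 libraries and below 1 in both E21 libraries. Of all transcripts tested, 28.2% had both P40 libraries above both E21 libraries and 46.1% had both below. The same shares for ratios of other pairs were not computed, and the pairs were chosen with earlier results known. Nothing is therefore read from the counts of ratios. The mature form rose and the young form fell in 4 pairs. Ezh1, the Polycomb methyltransferase of resting cells, had 10.4 and 10.2 FPKM at P40 and 3.99 and 5.33 FPKM at E21, while Ezh2, that of dividing cells, had 3.32 and 1.70 FPKM at P40 and 14.9 and 14.0 FPKM at E21. The rise of Ezh1 (1.01 ± 0.23, adjusted p = 0.00943) was lost without P40 mid-day (adjusted p = 0.0537), P40 mid-night (0.0612) or E21 mid-day (0.0748), and the fall of Ezh2 (-2.18 ± 0.20, adjusted p = 0.000195) was called in each case. The order of the pair was reversed between the ages in all 4 libraries. Tuba4a, an alpha tubulin, had 120.4 and 239.9 FPKM at P40 and 5.83 and 5.77 FPKM at E21, and Tuba1a, the alpha tubulin of growing neurons, had 3.57 and 4.74 FPKM at P40 and 18.0 and 14.9 FPKM at E21. Tuba1a has near-identical relatives, so its level is uncertain. Psmb8, the subunit of the immunoproteasome, had 1.58 and 1.45 FPKM at P40 and 0.167 and 0.456 FPKM at E21, but its standard counterpart Psmb5 stayed above it, with 14.1 and 16.8 FPKM at P40 and 62.8 and 28.0 FPKM at E21. Both calls of this pair were lost without P40 mid-day (adjusted p = 0.0684 and 0.0683). Chrna3 and Chrna7, given above, were the other pair of this kind.

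In 5 pairs the mature form rose and the young form did not pass. Slc12a5, the neuronal exporter of chloride, had 54.2 and 61.8 FPKM at P40 and 9.01 and 13.8 FPKM at E21 (log2 difference 2.27 ± 0.28, adjusted p = 0.000707), while Slc12a2, the importer, had 19.4 and 41.9 FPKM at P40 and 18.5 and 20.2 FPKM at E21 (0.54 ± 0.25, adjusted p = 0.11). The exporter gene was the higher of the pair in both P40 libraries and the lower in both E21 libraries. Of the beta subunits of the sodium pump, Atp1b2 had 388 and 566 FPKM at P40 and 127 and 176 FPKM at E21 (1.64 ± 0.29, adjusted p = 0.00353, or 0.123 with no filter), and Atp1b1 had 11.0 and 7.70 FPKM at P40 and 9.23 and 15.1 FPKM at E21. Atp1b2 was thus the higher of the pair in all 4 libraries. Eef1a2, the elongation factor of neurons and muscle, had 49.3 and 53.9 FPKM at P40 and 0.875 and 0.976 FPKM at E21 (4.77 ± 0.40, adjusted p = 0.000137). Eef1a1, the general form, had 83.5 and 13.3 FPKM at P40 and 13.9 and 6.54 FPKM at E21 (1.71 ± 0.70, adjusted p = 0.0822), and passed as higher without P40 mid-night (adjusted p = 0.0071) and with the P40 and E21 libraries alone (0.0287). It has many processed copies, and stood above Eef1a2 at mid-day at P40. Psmb9, a second immunoproteasome subunit, had 2.98 and 5.58 FPKM at P40 and 0.332 and 0.651 FPKM at E21 (1.79 ± 0.25, adjusted p = 0.00114).

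In 4 pairs the young form fell and the mature form did not pass: Lmnb1 beside Lmna, Actl6a beside Actl6b, Psmb7 beside Psmb10 and Tgfb2 beside Tgfb1. Lmna had 7.52 and 7.66 FPKM at P40 and 9.26 and 12.2 FPKM at E21, so the change of its pair lay in Lmnb1. In 6 pairs both genes fell, Dpysl2 with Dpysl3, Ptbp2 with Ptbp1, Igf1 with Igf2, Notch3 with Notch1, Smarcd3 with Smarcd1 and Dnmt3a with Dnmt3b. Igf1, by its 1 tested transcript, had 3.61 and 1.83 FPKM at P40 and 45.1 and 40.4 FPKM at E21, so the growth factor of later life fell with the fetal one. Neither gene passed in the lactate dehydrogenase pair and the aldolase pair. The calls of Actl6a, Psmb7, Tgfb2, Smarcd3 and Dnmt3b were lost without either P40 library, that of Ptbp1 without P40 mid-day and that of Ptbp2 without P40 mid-night, and each of the 7 except Ptbp1 and Tgfb2 also without E21 mid-night. Those of Psmb7, Tgfb2, Ptbp1 and Ptbp2 were lost without E21 mid-day as well. Over every omission that ended one of these calls, the adjusted p lay between 0.0525 and 0.257. Of the other 2 pairs, only Eno1 rose in the enolase pair and only St8sia4 fell in the sialyltransferase pair, and both calls were lost without any of the 4 libraries.

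**Figure D3:**
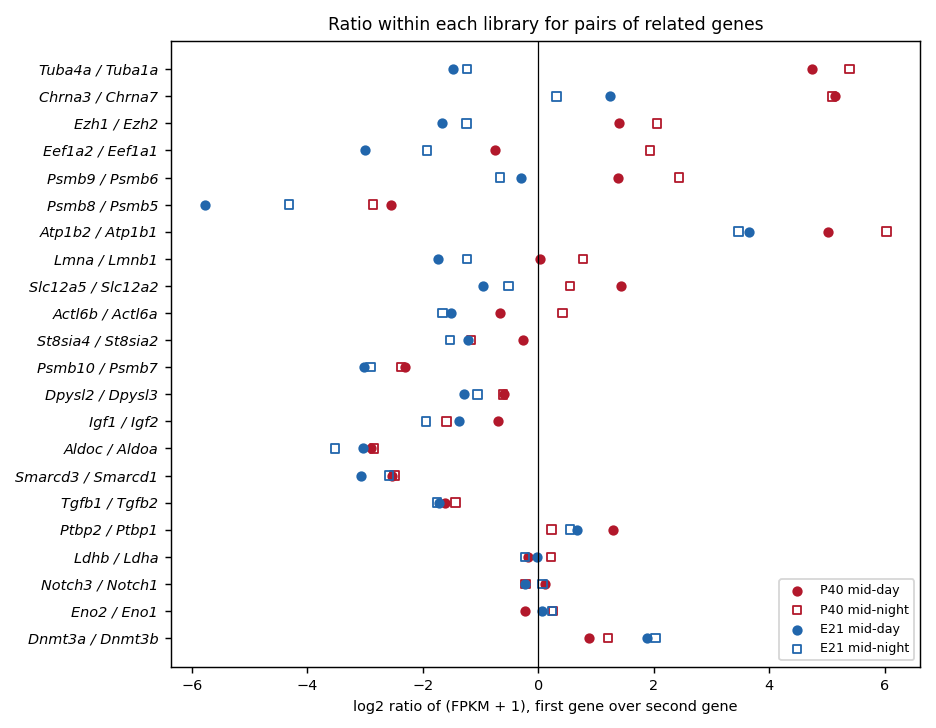
Log2 ratio of (FPKM + 1) of the mature form over the young form in each of the 4 libraries for 22 of the 23 pairs. Red marks are P40 and blue marks E21, with circles for mid-day and squares for mid-night; right of the vertical line the mature form was the higher. For Tuba4a over Tuba1a and Ezh1 over Ezh2 the marks of the ages lie on opposite sides of the line.

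Some transcripts were listed at 0 at one age. At 0 in both E21 libraries and above 0 in both P40 libraries were 133 transcripts, 3 of them with at least 1 FPKM in both. Conversely 220 were at 0 in both P40 libraries and above 0 in both E21 libraries, 7 of them with at least 1 FPKM in both. With no counts, no floor can be set, so folds are not given, and the E21 libraries were the shallower ones. Esrp1, an epithelial regulator of splicing, had 1.76 and 2.27 FPKM at P40 and 0 at E21 (adjusted p = 0.00048), and the protease inhibitor gene Serpina3n had 1.204 and 1.14 FPKM at P40 and 0 at E21 (adjusted p = 0.00172). Nkain3, which interacts with the sodium pump, had 0 at P40 and 8.63 and 10.47 FPKM at E21 (adjusted p = 3.57e-05). The mast cell proteases fell to 0 in both P40 libraries: Cpa3 had 2.32 and 4.37 FPKM at E21 (adjusted p = 0.000424) and Cma1 had 1.41 and 3.51 FPKM at E21 (adjusted p = 0.00167). Kit, also a mast cell marker, did not go with them, with 70.6 and 67.2 FPKM at P40 and 44.3 and 39.9 FPKM at E21. Its rise (0.70 ± 0.20, adjusted p = 0.0233) was lost without any of the 4 libraries (0.0911, 0.163, 0.0926 and 0.0783).

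The change with age could differ between day and night, and with 1 library for each age and time this was not tested. Of the 9960 transcripts, 734 had changes at mid-night and mid-day at least 2-fold apart, with the mid-night change the higher one in 466 and the lower one in 268. Only 10 changed by at least 2-fold in opposite directions, and 9 of them were higher at P40 at mid-night. Aanat, the enzyme that sets the rhythm of melatonin, had 1.72 and 321 FPKM at P40 and 13.5 and 9.45 FPKM at E21, so against E21 it was higher by 4.95 on the log2 scale at mid-night and lower by day (-2.41). Camk1g, a calcium- and calmodulin-dependent kinase, had 8.40 and 65.0 FPKM at P40 and 18.7 and 11.2 FPKM at E21 (2.43 at mid-night and -1.07 at mid-day). Slc15a1, a carrier of peptides, had 0.216 and 736 FPKM at P40 and 0 in both E21 libraries, and did not pass (adjusted p = 0.0777) in a fit with 1 effect of time of day for all ages. With separate effects of time of day for younger and older ages, Slc15a1 passed (adjusted p = 0.000196), and so did Aanat (adjusted p = 0.00725). Among transcripts that did not pass, 146 were at least 2-fold higher at P40 at mid-night only and 84 at mid-day only.

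**Figure D4:**
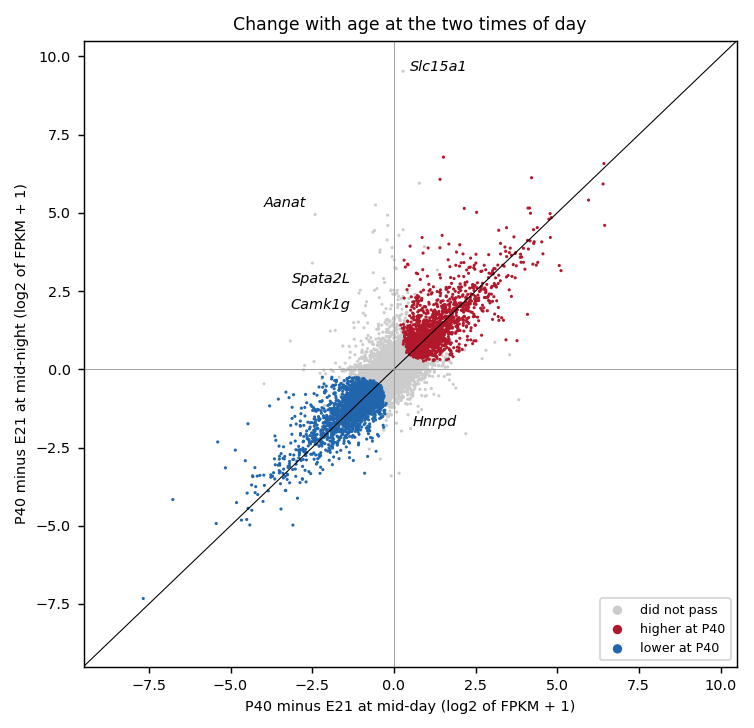
P40 minus E21 at mid-day (horizontal axis) against that at mid-night (vertical axis), both as log2 of FPKM + 1, for 9960 transcripts. Red points passed as higher at P40, blue as lower and grey did not pass, and the diagonal marks equal change. Aanat lies at -2.41 and 4.95, and Slc15a1 lies at the top with no level at E21.

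The libraries of P5 and P20 show when the levels moved, with no test. The midpoint was taken between the E21 and P40 values of log2(mean FPKM + 1), not of FPKM. Of the 950 transcripts higher by at least 2-fold, 602 had passed the midpoint between the E21 and P40 means by P5 and 855 by P20, and 561 kept the order of the ages. Of the 1331 lower by at least 2-fold, 605 had passed it by P5 and 1310 by P20, and 820 kept the order of the ages. Asmt had 0.432 and 1.19 FPKM at E21, followed by 106 and 109 at P5, then 204 and 206 at P20 and finally 123 and 208 at P40. Kcnj14 had 5.42 and 6.86 FPKM at E21, followed by 43.6 and 38.7 at P5, then 67.9 and 64.2 at P20 and finally 55.6 and 47.6 at P40. Slc12a5 had 9.01 and 13.8 FPKM at E21, followed by 52.7 and 38.2 at P5, then 77.0 and 54.0 at P20 and finally 54.2 and 61.8 at P40. These 3 were near their adult level by P5 or P20. Chrna3 had 4.18 and 2.66 FPKM at E21, followed by 7.46 and 5.73 at P5, then 10.6 and 6.96 at P20 and finally 34.2 and 35.7 at P40, and Penk had 0.686 and 1.61 FPKM at E21, followed by 3.43 and 2.64 at P5, then 10.2 and 14.6 at P20 and finally 23.6 and 30.1 at P40. In FPKM, Chrna3 and Penk were higher in both P40 libraries than in both P20 libraries. Among losses, Bmp4 had 50.8 and 38.8 FPKM at E21, followed by 16.4 and 16.1 at P5, then 4.91 and 6.60 at P20 and finally 4.11 and 4.78 at P40. Rbm3 had 108 and 94.5 FPKM at E21, followed by 112 and 84.1 at P5, then 19.2 and 9.36 at P20 and finally 10.4 and 8.18 at P40, so it was lower from P20 on, and Bmp4 already at P5.

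**Figure D5:**
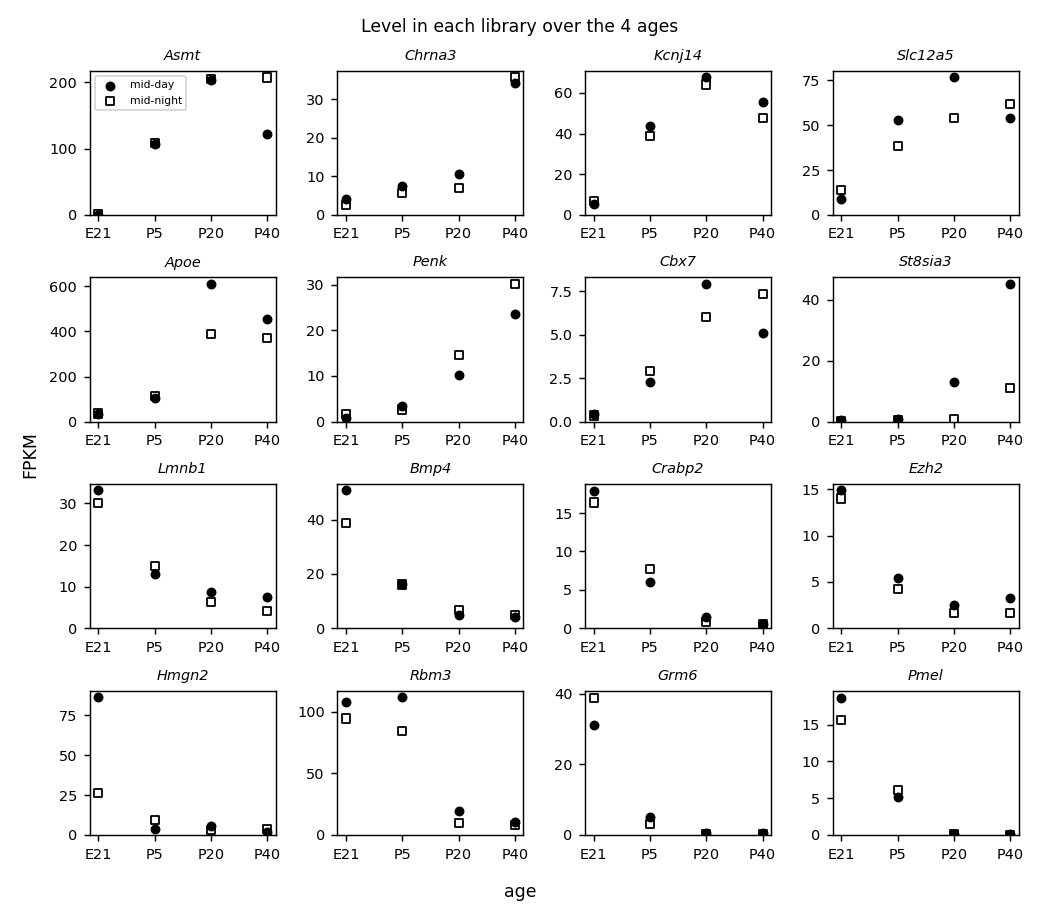
FPKM in each library over the 4 ages for 16 of the named genes, with filled circles for mid-day and open squares for mid-night and the vertical axis from 0 in each panel. Asmt and Kcnj14 were near their P40 level by P20, Chrna3 reached 34.2 and 35.7 FPKM only at P40, and Rbm3 stayed at 112 and 84.1 FPKM at P5 before it was lower.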

How the data were processed

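Polyadenylated RNA of pooled rat pineal glands was sequenced. FPKM values per transcript were deposited by the authors, who used TopHat 1.3.1 and Cufflinks 1.2.0 with build rn4, per the submitters' processing notes; read counts were not used here, so counting error is unknown, and the relative depths are estimates. Strand handling is not given in the sources used here. The series table and the 8 sample tables held the same values. Transcripts with at least 1 FPKM in 2 of 8 libraries were fitted as log2(FPKM + 1) with limma 3.58.1 (R 4.3.3, empirical Bayes with trend) on age and time of day, two-sided, adjusted by Benjamini-Hochberg over 9960 transcripts. The pseudocount understates changes of low genes. Time of day formed the block that pairs libraries across ages, as the labels give it. The fit was also run on simulated data with independent noise, in which few transcripts changed and no day-night difference varied with age. That run does not cover the many changes or the varying day-night differences of these data.

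The comparison, gene lists and pairs were chosen with earlier results of these data known. For a list gene with several transcripts, that of highest mean over the 4 libraries stands for the gene. Named genes were the 12 largest increases and decreases among genes with a single listed transcript. Each of these had at least 10 FPKM in both libraries of the higher age. Also named were up to 3 risen and 3 fallen members per list of highest level, and the pairs. The rest were the 6 largest gains and losses of level, transcripts at 0 at one age, and the largest opposite changes by time of day. Cell type markers are given as values. Aldh1a2, C3, Cbx2, Ckmt1, Ctss, Dll3, Gsta3, Mycn, Nr3c2, Prdx4, Serping1, Slc16a1, Slc16a3 and Sst were named after their values were seen. Promoters are from the RefSeq table of build GRCr8, matched by symbol. Alternatives were another pseudocount, filter or scaling, other models, and each library left out. Some results are not reported here.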

Additional observations from a re-analysis of the deposited data

Results flagged for a closer look

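Of the 10 transcripts in which the P40 and E21 libraries differed in opposite directions at mid-day and mid-night, each by at least 2-fold, the 4 with the largest opposite changes and at least 10 FPKM in 1 library are given. With 1 library for each age and time the difference between the times was not tested. Aanat was higher at P40 by 4.95 on the log2(FPKM + 1) scale at mid-night and differed by -2.41 at mid-day. Camk1g differed by 2.43 at mid-night and -1.07 at mid-day. Spata2L, with 1.26 and 24.98 FPKM at P40 and 3.61 and 3.50 FPKM at E21, differed by 2.53 at mid-night and -1.03 at mid-day. Hnrpd, an RNA-binding protein gene, went the other way: this one of its 4 transcripts had 7.63 and 3.08 FPKM at P40 and 0.875 and 16.0 FPKM at E21, differences of -2.06 at mid-night and 2.20 at mid-day.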

How the results depend on the processing

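Of 240 named transcripts tested, 220 passed, 108 of these passed under every alternative run, and none of the 220 changed direction. Transcripts called over the whole table numbered 2838 with a filter of 5 FPKM (1649 lower at P40, of 6520 tested). With 1 P40 or E21 library left out they numbered 2333 to 2907, with 914 to 1173 higher and 1419 to 1769 lower at P40. List members called numbered 329, but 188 with no filter on low values and 185 to 233 with 1 library left out. With no filter, 2967 of 16932 transcripts passed (prior degrees of freedom 0.81, against 4.82), 89 named calls were lost, and 66 and 84 were lost without P40 mid-day and P40 mid-night, against 59 and 56 without E21 mid-day and E21 mid-night. Without the replicate block of time of day 3975 passed. Quantile normalization gave 1957 higher and 2176 lower. The difference of Hnrpd, not called in the full set, was 0.072, but -1.75 without E21 mid-day (adjusted p = 0.0204) and 1.89 without E21 mid-night (0.0156). The causes were not tested.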

Other observations

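Values of 2 further genes known from pigment cells are given, chosen after their values were seen. Tyrp1, an enzyme of melanin synthesis, had 1.09 and 0.179 FPKM at P40 and 8.12 and 4.30 FPKM at E21 (log2 difference -2.15 ± 0.25, adjusted p = 0.000552 by limma), lower at P40 as Pmel was. Mitf, the factor that drives pigment genes, had 50.6 and 33.8 FPKM at P40 and 27.9 and 18.4 FPKM at E21 (0.84 ± 0.22, adjusted p = 0.0172). Its rise was lost without P40 mid-day (adjusted p = 0.138), without E21 mid-night (0.11) and with no filter (0.0771).

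Grm6, lower at P40, was set beside 5 single genes picked after their values were seen, which form no list. Trpm1, the channel that the receptor of Grm6 controls in the retina, had 32.8 and 37.7 FPKM at P40 and 12.9 and 16.7 FPKM at E21 for the higher of its transcripts (log2 difference 1.21 ± 0.22, adjusted p = 0.00353 by limma). Its other transcript did not pass (adjusted p = 0.0581). Cabp5, a calcium-binding protein, had 26.7 and 41.7 FPKM at P40 and 8.07 and 7.54 FPKM at E21 (1.97 ± 0.21, adjusted p = 0.00039). Gng13, a G protein subunit, had 15.6 and 5.74 FPKM at P40 and 2.20 and 0.491 FPKM at E21 (2.28 ± 0.20, adjusted p = 0.000172). Prkca, a protein kinase C, had 21.1 and 28.2 FPKM at P40 and 4.52 and 5.75 FPKM at E21 (2.06 ± 0.26, adjusted p = 0.000852). Opn1sw, a cone opsin, had 28.4 and 46.8 FPKM at P40 and 2.42 and 4.15 FPKM at E21 (3.16 ± 0.27, adjusted p = 0.000154).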
